A study of Mus musculus with 6 samples.

Results

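The 10 genes described here encode the enzymes that make and break down polyamines, together with the antizyme proteins that hold polyamine levels in check. They were taken by name, as Odc1, Amd1, Srm, Sms, Sat1, Smox, Paox, Oaz1, Oaz2 and Azin1, from a table of 53465 mouse genes. Each name matched 1 row, and all 10 were among the 11020 genes that passed the filter on low values. RPKM, the unit of the table, scales reads to gene length and library total, and the filter asked for 1 RPKM or more in 3 or more libraries. The cell line, Nras(G12D)/MLL-AF9, is a mouse leukaemia model with a mutant Nras and the MLL-AF9 fusion, labelled as from blood. Both groups were grown with the cytokines SCF, IL-3 and IL-6. One group (OMP, n = 3) received 100 µM 4'-O-methylpyridoxine for 6 days, and the other (Vehicle, n = 3) an equal volume of PBS over the same 6 days. The labels do not state whether the replicates were separate cultures or whether the line is 1 clone, so p-values reflect only how these libraries vary, and that variation may be technical.

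Polyamines are small, positively charged molecules that bind nucleic acids and are needed for cell growth. Ornithine decarboxylase (Odc1) makes putrescine from ornithine, and spermidine synthase (Srm) and spermine synthase (Sms) add aminopropyl groups that come from S-adenosylmethionine through the decarboxylase Amd1. Spermine oxidase (Smox), the acetyltransferase Sat1 and the acetylpolyamine oxidase Paox run the path backwards, and the antizymes (Oaz1, Oaz2) send ornithine decarboxylase to the proteasome unless the antizyme inhibitor Azin1 takes them up. Ornithine decarboxylase needs pyridoxal phosphate, the active form of vitamin B6, whereas Amd1 carries a pyruvoyl group in its place. OMP resembles vitamin B6 and is known to block pyridoxal kinase, the enzyme that activates the vitamin. The comparison asks how the transcripts of this pathway differed after OMP.

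The library totals recovered from the RPKM steps ran from 3737843 to 4247619 reads in Vehicle and from 3494986 to 3720117 reads in OMP. All 8 markers listed for myeloid leukaemia cells were above a mean of 1 RPKM over the 6 libraries, with summed levels of 2287 to 2359 RPKM in Vehicle and 1232 to 1317 RPKM in OMP. Most of that sum was Elane, at 974 to 1019 RPKM in Vehicle and 346 to 387 RPKM in OMP, and Ctsg, at 969 to 1009 and 446 to 499 RPKM. Mpo was lower too, at 11.6 to 12.7 RPKM in Vehicle and 1.98 to 2.97 RPKM in OMP. The remaining genes of the list did not follow the sum, and Itgam and Cd33 were higher in every OMP library. Ptprc, at 104 to 109 RPKM in Vehicle, was at 137 to 145 RPKM in OMP, and the groups overlapped for Hoxa9 and Meis1. None of the 4 listed T cell markers or the 3 listed megakaryocyte markers reached that mean, and Cd3e and Pf4 were at 0 in every library. The summed T cell markers ran from 0 to 0.452 RPKM in Vehicle and from 0.862 to 2.28 RPKM in OMP. Nearly all of the OMP sum was Trac, at 0.862 to 2.11 RPKM, while Cd3d was at most 0.174 RPKM there and Cd3g 0 in every library. The summed megakaryocyte markers ran from 0.537 to 0.910 RPKM in Vehicle and from 1.46 to 2.08 RPKM in OMP. Their part in the polyamine values was not tested.

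Promoter letters are shown for 3 genes that rose with OMP, Odc1, Amd1 and Sat1, beside Oaz1, which did not pass the test. They were copied from RefSeq (GRCm38.p6), which held windows for 8 of the 10 genes, 10 windows in all, but none for Srm and Azin1. Each stretch runs 5′ to 3′ on the gene's strand from 250 bases before the annotated start. It ends before the first base that is exonic in any annotated transcript, or just before the start where there is none. Odc1 is on the plus strand at chr12:17544623-17544793, Amd1 on the minus strand at chr10:40302189-40302438, Sat1 on the minus strand at chrX:155216450-155216699 and Oaz1 on the plus strand at chr10:80826406-80826655. Capitals mark the letters GGGCGG on either strand, the core of the GC box.
Odc1: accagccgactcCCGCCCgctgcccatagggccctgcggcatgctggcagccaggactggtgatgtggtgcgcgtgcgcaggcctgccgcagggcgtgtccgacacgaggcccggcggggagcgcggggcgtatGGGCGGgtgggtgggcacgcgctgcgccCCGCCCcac
Amd1: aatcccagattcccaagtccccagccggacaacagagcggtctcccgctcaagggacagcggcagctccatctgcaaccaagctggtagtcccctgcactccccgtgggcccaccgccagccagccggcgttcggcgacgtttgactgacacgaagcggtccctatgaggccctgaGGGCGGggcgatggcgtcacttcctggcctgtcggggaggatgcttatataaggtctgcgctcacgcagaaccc
Sat1: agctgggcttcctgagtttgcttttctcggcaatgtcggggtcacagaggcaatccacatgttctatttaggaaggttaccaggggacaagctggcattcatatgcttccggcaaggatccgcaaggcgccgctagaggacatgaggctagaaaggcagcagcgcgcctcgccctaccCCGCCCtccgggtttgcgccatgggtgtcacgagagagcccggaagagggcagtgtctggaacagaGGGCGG
Oaz1: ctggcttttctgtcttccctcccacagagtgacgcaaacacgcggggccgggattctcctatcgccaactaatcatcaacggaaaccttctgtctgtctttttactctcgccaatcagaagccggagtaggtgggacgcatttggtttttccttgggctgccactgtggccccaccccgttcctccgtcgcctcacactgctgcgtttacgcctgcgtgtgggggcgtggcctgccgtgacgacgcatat
Over the full 250-base windows, of the genes that rose, Odc1 held 4 of these matches, Amd1 1, Sat1 2 and Smox 6. The Smox window is not shown, because its first base is already exonic in an annotated transcript. Paox, which fell, held 1 and 3 in its 2 overlapping windows. Of the genes without a call, Oaz1 held 0, Oaz2 3, and Sms 4 in one window and 0 in the other. The matches were thus found in 8 of the 10 windows, with genes of each outcome among them. GGGCGG on either strand occurred in 32.7% of 32851 such windows genome-wide. The E-box CACGTG, the best-known binding motif of MYC, occurred in 6.02% of all windows and in 1 of the 10 windows of these genes, the one farther upstream for Sms. TATAAA on either strand was in 12.4% of all windows and in 0 of these 10. These matches describe exact letters in short windows only. Near variants, such as the letters tatataag in the Amd1 stretch, were not counted. Bases outside the windows were not searched, so a window without a motif does not mean a gene without it.

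Relative to each library's total, transcripts of most of the synthesis enzymes, of spermine oxidase and of Sat1 were higher with OMP. The amount of mRNA per cell was not measured. The antizymes and the antizyme inhibitor did not pass the test in the RPKM as deposited. Smox was 3.07-fold, Srm 1.86-fold, Odc1 1.53-fold, Amd1 1.27-fold and Sat1 1.21-fold higher, and Paox was 1.79-fold lower, all on the log2(RPKM + 0.5) scale, which understates the change of low genes. In all, 6 of the 10 genes passed the threshold (limma, Benjamini-Hochberg adjusted p under 0.05 over all genes tested), 5 of them higher and 1 lower. Of all genes tested 43.0% passed, 15.4% higher and 27.5% lower. The share of higher genes over all genes depended on scaling, with 1702 higher and 3033 lower in the RPKM as deposited, 2366 and 2236 with median-of-ratios scaling, 2244 and 2321 with quantile normalization, 2690 and 2473 with voom on recovered reads, and 1215 and 3973 with rescaling to TPM. The 5 rises and the fall of Paox passed under each of these scalings. The call of Paox rests on few reads and is less certain for that reason. Oaz1 and Azin1 passed as higher with median-of-ratios scaling and voom only. The median log2 fold change was 0.18 over the 10 genes and -0.09 over all genes tested. The 3 OMP libraries were all above or all below the 3 Vehicle libraries for 7 of the 10 genes, against 54.5% of all genes tested. In bulk RNA, fewer cells with a transcript and less of it per cell cannot be told apart.

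**Figure D1:**
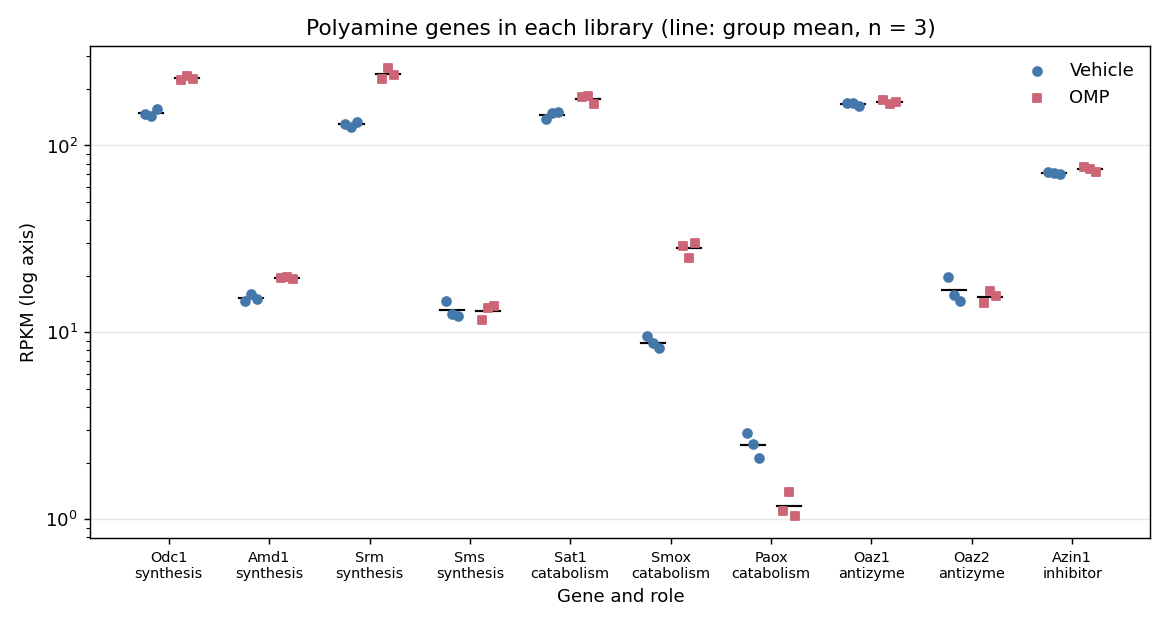
RPKM of the 10 genes (log axis) in each of the 3 Vehicle (circles) and 3 OMP (squares) libraries, with a line at each group mean. Groups are well apart for Odc1, Srm, Smox and Paox and overlap for Sms, Oaz1 and Oaz2.

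Odc1 (ENSMUSG00000011179, GRCm38 chromosome 12, 17544794 to 17551505), the first and usually rate-limiting enzyme, had 148, 145 and 156 RPKM in Vehicle replicates 1 to 3 and 225, 235 and 226 RPKM in the OMP replicates. Every OMP library was above every Vehicle library, by a margin far wider than the spread within either group. It rose by 0.61 on the log2 scale (SE 0.04, limma adjusted p = 1.26e-05). A snoRNA gene lies in an intron of Odc1 and shares none of its exon bases.

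Amd1 (ENSMUSG00000075232, chromosome 10, 40287458 to 40302186), the decarboxylase that supplies the aminopropyl groups, had 14.7, 16.0 and 15.1 RPKM in the Vehicle replicates and 19.5, 19.7 and 19.3 RPKM in the OMP replicates. The OMP values lay close together and above all Vehicle values. It rose by 0.34 on the log2 scale (SE 0.06, limma adjusted p = 0.00244). Amd2, a near-identical copy, took 4 reads in Vehicle and 6 in OMP. These counts do not show how reads that fit both copies were treated, so the level of Amd1 may be understated.

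Srm (ENSMUSG00000006442, chromosome 4, 148591503 to 148594993) had 129.6, 126 and 133 RPKM in the Vehicle replicates and 227, 259 and 238 RPKM in the OMP replicates. It was the most abundant of the 10 transcripts in OMP, at 241 ± 16.0 RPKM (SD, n = 3), and the fourth in Vehicle, at 129.5 ± 3.31 RPKM. The rise was 0.89 on the log2 scale (SE 0.05, limma adjusted p = 6.31e-06). OMP replicate 2 was the highest library for Srm and for Odc1.

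Sms (ENSMUSG00000071708, chromosome X, 157443855 to 157492287), which makes spermine from spermidine, had 14.7, 12.6 and 12.2 RPKM in the Vehicle replicates and 11.7, 13.5 and 13.8 RPKM in the OMP replicates. The groups overlapped. The log2 fold change was -0.01, with a 95% interval from -0.24 to 0.21 (limma adjusted p = 0.926). Its sign turned without Vehicle replicate 1 (0.07), without OMP replicate 1 (0.06), and with median-of-ratios scaling (0.07), quantile normalization (0.09) and voom (0.09), with no call in any of them. The copy Sms-ps took 30 reads in Vehicle and 14 in OMP, against 587 and 521 for Sms.

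Smox (ENSMUSG00000027333, chromosome 2, 131491496 to 131525922), which oxidises spermine to spermidine and releases hydrogen peroxide, had 9.54, 8.72 and 8.19 RPKM in the Vehicle replicates and 29.1, 25.1 and 30.2 RPKM in the OMP replicates. Its rise of 1.62 on the log2 scale (SE 0.09, limma adjusted p = 5.51e-06) was the largest of the 10 and ranked 89th among the rises of all 11020 genes tested. These values rest on 244 reads in Vehicle (exact 95% Poisson interval 214 to 277) and 697 in OMP (646 to 751). Such intervals cover counting error only. Smox went from the ninth most abundant of the 10 transcripts to the sixth.

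Sat1 (ENSMUSG00000025283, chromosome X, 155213132 to 155216449), the acetyltransferase that marks spermidine and spermine for export or oxidation, had 139, 149 and 151 RPKM in the Vehicle replicates and 181, 183 and 167 RPKM in the OMP replicates. The lowest OMP library was above the highest Vehicle library. The rise was 0.28 on the log2 scale (SE 0.05, limma adjusted p = 0.00217).

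Paox (ENSMUSG00000025464, chromosome 7, 140115799 to 140137224), which oxidises the acetylated polyamines, was the least abundant, with 2.87, 2.52 and 2.12 RPKM in the Vehicle replicates and 1.11, 1.39 and 1.04 RPKM in the OMP replicates. All OMP libraries were below all Vehicle libraries, a change of -0.84 on the log2 scale (SE 0.21, limma adjusted p = 0.0112). The counts behind it were 140 reads in Vehicle (exact 95% Poisson interval 118 to 165) and 59 in OMP (44.9 to 76.1). In simulated data, the same fit gave false calls above the nominal share, mostly among genes with few reads. Far fewer genes were changed there than were called here, so that share does not carry over. The call of Paox rests on few reads and is taken as less certain than calls of genes with many reads. Without Vehicle replicate 1 the adjusted p was 0.0481. Paox shares 142 of its 4907 exon bases with Echs1 on the opposite strand. Echs1 ranged over 81.0 to 87.9 RPKM in Vehicle and over 61.1 to 65.8 RPKM in OMP. Since the strand setting is not given, reads from Echs1 cannot be told apart from those of Paox in that stretch.

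Oaz1 (ENSMUSG00000035242, chromosome 10, 80826656 to 80829290), whose protein is made by a ribosomal frameshift that polyamines promote, had 168, 168 and 163 RPKM in the Vehicle replicates and 174, 166 and 171 RPKM in the OMP replicates. The groups overlapped, and the log2 fold change of 0.03 had a 95% interval from -0.05 to 0.11 (limma adjusted p = 0.473). Oaz1 passed the test with median-of-ratios scaling (0.12, adjusted p = 0.0276) and with voom (0.13, adjusted p = 0.0405), and the value turned to -0.05 with TPM and to -0.01 with quantile normalization, without a call. The pseudogene Oaz1-ps took 29 reads in Vehicle and 21 in OMP, against 2154 and 1967 for Oaz1.

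Oaz2 (ENSMUSG00000040652, chromosome 9, 65668001 to 65690300), the second antizyme, had 19.7, 15.9 and 14.7 RPKM in the Vehicle replicates and 14.3, 16.7 and 15.6 RPKM in the OMP replicates. The groups overlapped, and Vehicle replicate 1 was the highest of the 6 libraries. The log2 fold change was -0.10, with a 95% interval from -0.36 to 0.15 (limma adjusted p = 0.492), and 0.02 without Vehicle replicate 1.

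Azin1 (ENSMUSG00000037458, chromosome 15, 38487427 to 38519266), a relative of ornithine decarboxylase that binds antizyme without making putrescine, had 71.9, 70.9 and 70.8 RPKM in the Vehicle replicates and 77.1, 75.3 and 72.1 RPKM in the OMP replicates. The OMP libraries were all above the Vehicle libraries, the nearest by a narrow margin, and the log2 fold change of 0.07 had a 95% interval from -0.02 to 0.17 (limma adjusted p = 0.197). It passed with median-of-ratios scaling (0.16, adjusted p = 0.0179) and with voom (0.16, adjusted p = 0.00133), and turned to -0.01 with TPM without a call. An antisense gene that shares 358 exon bases with Azin1 was listed at 0 in all libraries.

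**Figure D2:**
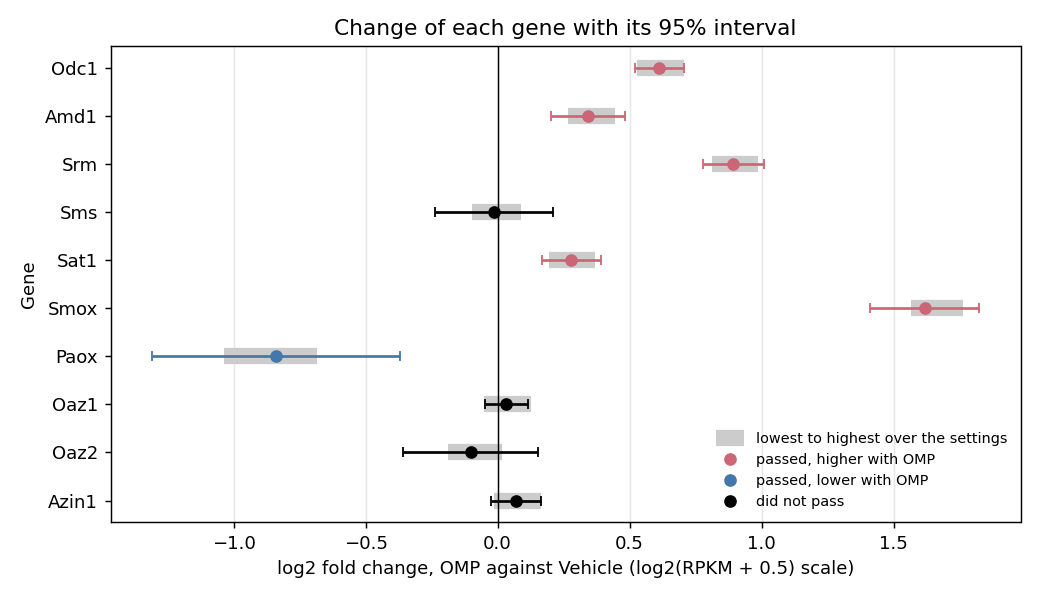
Log2 fold change of each gene, OMP against Vehicle, on the log2(RPKM + 0.5) scale, as a point with its 95% interval from limma, over a grey bar from the lowest to the highest value over all settings tried. The intervals of Odc1, Amd1, Srm, Sat1, Smox and Paox keep clear of 0, and those of Sms, Oaz1, Oaz2 and Azin1 cross it.

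RPKM is scaled to gene length, so levels can be set side by side, as far as the lengths used fit the transcripts present. In Vehicle the order was Oaz1 (167 ± 2.86 RPKM), Odc1 (149 ± 5.81), Sat1 (146 ± 6.17), Srm (129.5 ± 3.31), Azin1 (71.2 ± 0.631), Oaz2 (16.8 ± 2.64), Amd1 (15.3 ± 0.683), Sms (13.1 ± 1.36), Smox (8.82 ± 0.681) and Paox (2.51 ± 0.375), each as mean ± SD with n = 3. Neighbours whose ranges overlapped were Odc1 with Sat1 and Oaz2 with Amd1. In OMP the order was Srm (241 ± 16.0 RPKM), Odc1 (229 ± 5.26), Sat1 (177 ± 8.69), Oaz1 (171 ± 4.19), Azin1 (74.8 ± 2.53), Smox (28.1 ± 2.67), Amd1 (19.5 ± 0.194), Oaz2 (15.5 ± 1.19), Sms (13.0 ± 1.14) and Paox (1.18 ± 0.187). There Srm overlapped with Odc1, and Sat1 with Oaz1. For 18 of the 20 group values of the 10 genes, the variance between libraries was at most 2.5 times that of counting alone. The exceptions were Srm in OMP, at 5.03 times, and Oaz2 in Vehicle, at 3.00 times.

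Ratios between pairs of these transcripts were taken within each library, as a description without a test. The ratio of Odc1 to Oaz1, the enzyme's transcript over that of its main antizyme, was 0.879, 0.860 and 0.954 in Vehicle replicates 1 to 3 and 1.29, 1.41 and 1.32 in the OMP replicates. In RPKM, Odc1 was thus the lower of the pair in every Vehicle library and the higher in every OMP library. The ratio of Odc1 to Azin1 was 2.04 to 2.20 in Vehicle and 2.92 to 3.13 in OMP. The ratio of Sat1 to Srm was 1.07 to 1.18 in Vehicle and 0.704 to 0.798 in OMP, so the acetyltransferase transcript passed from above to below that of spermidine synthase. Smox stood at 0.650 to 0.694 of Sms in Vehicle and at 1.86 to 2.49 of it in OMP, and these enzymes run opposite reactions between spermidine and spermine. Amd1 stood at 0.0966 to 0.111 of Odc1 in Vehicle and at 0.0838 to 0.0863 in OMP. A common scaling of a library cancels in these ratios, but gene lengths do not. The lengths that gave whole reads were 2208 bases for Odc1 and 1071 for Oaz1, against 3405 and 2558 annotated exon bases. Which gene of a pair is the higher can therefore depend on the lengths used. The change of a ratio between the groups does not.

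**Figure D3:**
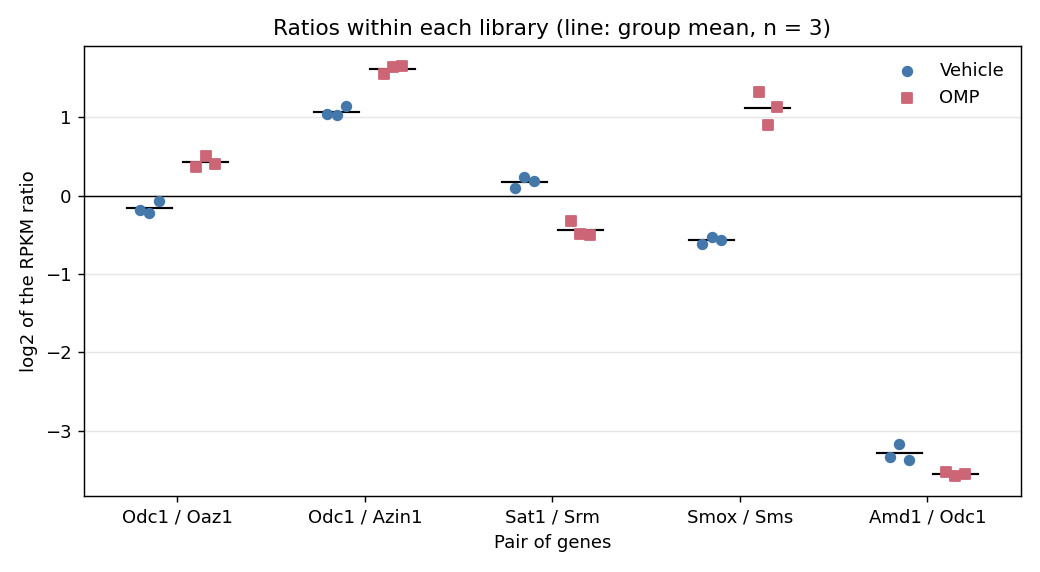
Log2 of the RPKM ratio of 5 pairs of genes in each library, Vehicle as circles and OMP as squares, with a line at each group mean. The ratios Odc1 to Oaz1, Sat1 to Srm and Smox to Sms lie on opposite sides of 0 in the 2 groups. The place of 0 depends on the gene lengths used.

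Genes around the pathway were read from 6 lists of 40 genes in all, of which 23 passed the filter. Of these 3 were higher and 8 lower, or 47.8% called against 43.0% of all genes tested, with a median log2 fold change of -0.07 against -0.09. Of 5 tested genes for the supply of ornithine and arginine 0 rose and 1 fell. Ass1, argininosuccinate synthase, went from 5.52 ± 0.0383 to 4.04 ± 0.635 RPKM (limma adjusted p = 0.0304), a call that was lost on leaving out any 1 library except OMP replicate 3 (adjusted p from 0.0744 to 0.0840 in the other 5). It was also lost with no filter (adjusted p = 0.0806), median-of-ratios scaling (0.0647), quantile normalization (0.108) and voom (0.187). Arg1, liver-type arginase, had 0 reads in every library, and Arg2, the mitochondrial arginase, had 3 reads in Vehicle and 17 in OMP and was under the filter. Slc7a1, an arginine carrier, stood at 79.6 ± 1.88 and 80.0 ± 3.94 RPKM (limma adjusted p = 0.938), and passed with voom (log2 fold change 0.098, adjusted p = 0.0333).

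Of 5 tested genes of S-adenosylmethionine supply and recycling 1 rose and 3 fell. Mat2a, the catalytic subunit of methionine adenosyltransferase outside the liver, went from 102 ± 7.24 to 108 ± 5.52 RPKM (limma adjusted p = 0.350). It passed with median-of-ratios scaling (log2 fold change 0.16, adjusted p = 0.0481) and with voom (0.17, adjusted p = 0.00296), and was -0.01 with TPM. Mat2b, its regulatory subunit, Ahcy, which clears S-adenosylhomocysteine, and the related Ahcyl1 were 1.24-fold, 1.37-fold and 1.37-fold lower. Mtr, methionine synthase, was 1.18-fold higher (limma adjusted p = 0.0364), a call that was lost without Vehicle replicate 1 or 2 and without OMP replicate 1 or 3 (adjusted p from 0.0793 to 0.117), with no filter (0.0620) and with TPM (0.142).

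Srm and Sms both release methylthioadenosine, which 6 listed genes turn back into methionine, and of these 2 rose and 2 fell. Mtap, the phosphorylase that starts this salvage, rose 1.42-fold from 25.5 ± 1.12 to 36.4 ± 1.66 RPKM (limma adjusted p = 0.000261). The smaller changes were Adi1 (1.15-fold higher), Apip (1.19-fold lower) and Got1 (1.12-fold lower). Each of those 3 lost its call in at least 4 of the 6 fits that left out 1 library. Adi1 also lost it with TPM, and Apip and Got1 with no filter, median-of-ratios scaling, quantile normalization and voom. Among 3 tested transport genes 0 rose and 2 fell. Atp13a2, a lysosomal polyamine exporter, was 1.61-fold lower, from 17.0 ± 0.946 to 10.4 ± 1.29 RPKM (limma adjusted p = 0.000673), and Slc3a2, the heavy chain of several amino acid carriers that is also linked to polyamine movement, was 1.18-fold lower. Atp13a3, a related transporter of the cell's endosomes, had 55.2 ± 2.11 and 59.4 ± 4.30 RPKM (limma adjusted p = 0.204) and passed with median-of-ratios scaling (log2 fold change 0.19, adjusted p = 0.0358) and with voom (0.19, adjusted p = 0.000411).

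Spermidine is also the donor for hypusine, a modified lysine of the translation factor Eif5a, and 0 of 3 tested genes of that step passed. Eif5a itself went from 848 ± 20.0 to 902 ± 29.7 RPKM (limma adjusted p = 0.0705), and it passed with median-of-ratios scaling (log2 fold change 0.18, adjusted p = 0.00497), quantile normalization (0.10, adjusted p = 0.0350) and voom (0.18, adjusted p = 2.19e-06). Dhps, deoxyhypusine synthase, had 27.0 ± 2.08 and 28.8 ± 2.10 RPKM (limma adjusted p = 0.359). Of the remaining antizyme, inhibitor and acetyltransferase genes only Hdac10, a polyamine deacetylase, passed the filter, with a limma adjusted p of 0.0958 (0.0228 with TPM, lower in OMP), while Oaz3, Azin2 and Sat2 had 3 to 8 reads per group.

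**Figure D4:**
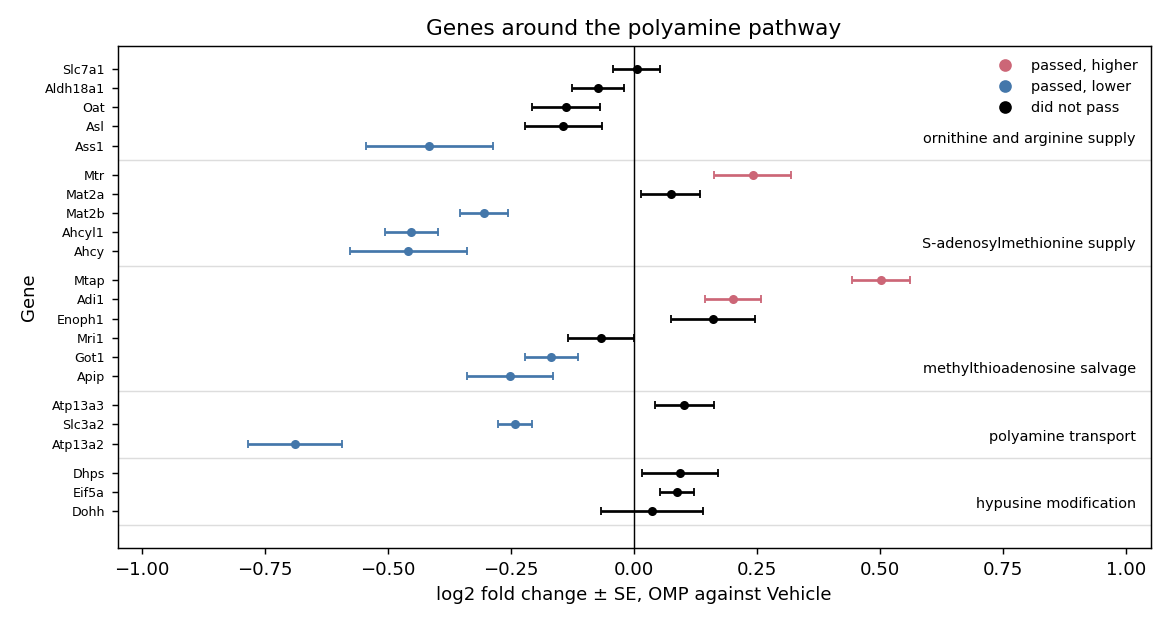
Log2 fold change ± SE of the tested genes of 5 lists around the pathway, OMP against Vehicle. Mtap is the farthest to the right, at 0.50, and Atp13a2 the farthest to the left, at -0.69.

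Myc, a transcription factor known to act on Odc1, went from 204 ± 4.18 to 217 ± 11.6 RPKM (limma adjusted p = 0.137), and passed with median-of-ratios scaling (log2 fold change 0.18, adjusted p = 0.0102) and voom (0.18, adjusted p = 0.000200). Its partner Max was 1.30-fold lower. Maturation and proliferation genes moved in the same libraries. Their lists were chosen with earlier results of these data known, so the counts are description only. Of all genes tested, 15.4% were higher and 27.5% lower. All 12 genes of a granulocyte maturation list were higher with OMP, with summed levels of 2984 to 3091 RPKM in Vehicle and 9399 to 9926 RPKM in OMP and none of them at 0. S100a9, Ngp and S100a8 had the lowest adjusted p, and the largest change was that of Retnlg, 16.2-fold. All 12 genes of a DNA replication list were lower, with sums of 1180.2 to 1201 RPKM in Vehicle and 721 to 727 RPKM in OMP. Rrm2, Cdt1 and Mcm3 had the lowest adjusted p, and the largest change was that of Tk1, -1.32 on the log2 scale. Their part in the polyamine values was not tested.

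The genes whose profile over the 6 libraries was nearest to that of Odc1 were Gabarap, Mcu, Srp72, Fpgs and Cfp, among 6204 candidates with a mean of at least 10 RPKM. Genes with Gm, Rik or pseudogene names were left out of the candidates. Their distances, as the square root of summed squared differences of centred log2 values, ran from 0.0597 for Gabarap to 0.0909 for Cfp. Their log2 fold changes of 0.56 to 0.60 were close to that of Odc1. With 2 groups of 3 libraries, such likeness mainly reflects a similar difference between the groups.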

How the data were processed

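Poly(A)-selected RNA of 6 libraries, 3 per group, was made into TruSeq libraries, per the labels' protocols. The authors deposited RPKM in 1 column per library. Per the submitters' processing notes, the tools were STAR 2.5.3a, featureCounts 1.6.3, Trimmomatic 0.36 and FastQC 0.11.5, and the build mm10 (GRCm38). The sources used here do not give the annotation release or the strand setting. Columns were matched to libraries by title.

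Genes that reached 1 RPKM in 3 or more libraries were fitted as log2(RPKM + 0.5) with limma 3.58.1 in R 4.3.3 (trended prior, no covariates, two-sided), with Benjamini-Hochberg adjustment over all 11020 genes and a threshold of 0.05. The fit was tested on simulated data, where false calls ran above the nominal share, mostly among genes with few reads, and small changes were often missed. Far fewer genes were changed there than were called in the real data, so the simulated shares do not carry over. Whole reads were recovered for 99.9% of the 19970 genes above 0, within a relative tolerance of 5e-06, from steps that depend on gene length and library total, and 94.7% of these lengths equalled an annotated length in GENCODE M21, which also gave positions. The authors may have counted on another release. The recovered reads served read numbers, intervals and a voom alternative. Library pairs within a group differed by more than sampling noise (chi-square per degree of freedom 1.18 to 1.60), and all were kept.

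The 10 genes and the lists were chosen with earlier results of these data known. From the lists, the genes named were those past the threshold with at least 1.25-fold change, up to 3 per list by adjusted p, and Myc, Mtap, Eif5a, Dhps, Slc3a2, Arg1, Mat2a and Amd2 whatever their values. Others were chosen after their values were seen. Alternatives were other pseudocounts, filters, scalings, a robust prior, voom, stricter thresholds, the replicate number as a block and leaving out each library. Some listed marker genes are not reported here.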

Additional observations from a re-analysis of the deposited data

How the results depend on the processing

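Of the 10 polyamine genes, median-of-ratios scaling and voom called 7 higher. A requirement of at least 1.5-fold, which can only lower the count, left 3, and each other setting called 5. Paox was the 1 gene called lower. Its limma adjusted p of 0.0112 did not pass 0.01, which left 0 there. With a filter at 5 RPKM Paox was not tested, which also left 0. Over all genes, voom called 2690 higher, an adjusted p under 0.01 left 1079 higher and 1991 lower, and at least 1.5-fold left 434 and 991. Sms turned to 0.073 with median-of-ratios scaling, 0.086 with quantile normalization and 0.087 with voom. Oaz1 was -0.051 with TPM, 0.12 with median-of-ratios scaling, -0.0057 with quantile normalization and 0.13 with voom. Azin1 was -0.013 with TPM and 0.16 with both median-of-ratios scaling and voom. Slc7a1 was -0.079 and Mat2a -0.0099 with TPM. TPM and median-of-ratios scaling multiply each library by a constant, and they moved the median over all genes tested by -0.085 and 0.083. Quantile normalization and voom moved it by 0.082 and 0.089. Why the scalings differ between the groups was not tested. These are log2 fold changes. Of the members' single-gene values under alternatives, 146 kept direction and side of the threshold, 4 passed it anew and 9 changed sign. On leaving out each library, 1418 to 1477 genes were higher and 2531 to 2764 lower over all genes, Sms ran from -0.065 to 0.067, Oaz2 from -0.19 to 0.018 and Slc7a1 from -0.026 to 0.044.

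Small lists moved more. For ornithine and arginine supply, 0 were lower with no filter, median-of-ratios scaling and quantile normalization, 4 with TPM, and voom gave 1 higher and 0 lower. For S-adenosylmethionine supply, 0 were higher with no filter and TPM, and 2 with median-of-ratios scaling and voom. For methylthioadenosine salvage, 0 were lower with no filter, median-of-ratios scaling, quantile normalization and voom, and 1 was higher with TPM. Polyamine transport had 1 higher with median-of-ratios scaling and voom. Hypusine modification had 1 higher with those and quantile normalization, and the other antizyme, inhibitor and acetyltransferase genes 1 lower with TPM. On leaving out each library, 0 to 1 were lower for ornithine supply, 0 to 1 higher for S-adenosylmethionine supply, and 1 to 2 higher and 0 to 2 lower for methylthioadenosine salvage.

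Nothing in the labels pairs libraries across groups beyond the replicate numbers. Residuals from the group means, taken between the Vehicle and OMP libraries of each number, had correlations of -0.0024, 0.015 and 0.0069, and Vehicle 1 correlated best with OMP 2. A replicate block gave 1598 higher and 2847 lower genes, with 5 higher and 1 lower among the polyamine genes. Depth limits Paox most, with 18 to 50 reads per library.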
